A study of Homo sapiens with 12 samples.

Results

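PC3, an established human prostate cancer cell line grown from a bone metastasis, was compared after transfection with an siRNA against FOXA1 (siFOXA1) and after transfection with a non-targeting siRNA (NSI). The 6 PC3 libraries, 3 NSI and 3 siFOXA1 by their titles, were 6 of the 12 libraries of the series. The other 6 came from the line VCaP, also with NSI or siFOXA1, at 40 nM siRNA for 72 hours. They were used only in the test between the lines. Both PC3 groups received 20 nM siRNA with RNAiMax in RPMI-1640 with foetal calf serum, and RNA was taken after 72 hours. Polyadenylated RNA was sequenced, and the values are counts of read fragments per gene. The labels name neither the siRNA sequences nor their number, and they do not say whether replicates were separate cultures, so p-values measure only the spread between these libraries. An siRNA lowers a transcript without removing the gene, and 1 line with 1 control siRNA was studied. By its title the study concerns splicing-related genes, and the account below covers what else changed in PC3.

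FOXA1 is a forkhead transcription factor that binds DNA in closed chromatin and opens it for other factors. It is active in the luminal cells of the prostate, and in gut, lung and other endodermal tissues it is active in mucus-secreting cells. PC3 is known as a line that does not depend on androgen and still expresses FOXA1.

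The PC3 libraries held between 123140099 and 188226483 counts, of which 13.1% to 15.7% came from mitochondrial genes. The first principal component held 74.7% of the variance among the 6 libraries and separated siFOXA1 from NSI. The second held 17.1% and separated replicate 2 of both groups from replicates 1 and 3. Of the markers set for the line, KRT8, KRT18, KRT19, CD44, VIM and EPCAM were all detected, between 17.6 and 819 CPM (counts scaled to library size) on group average. KLK3, a secreted product of luminal prostate cells, averaged 0.00718 CPM in NSI and 0.00457 CPM with siFOXA1. SLC45A3 and STEAP2, markers of VCaP, were also present, at 20.3 and 10.2 CPM in NSI.

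FOXA1 itself (chromosome 14, 38059189 to 38064239, minus strand, GRCh37) checked the labels. It was at 303, 244 and 266 CPM in the NSI libraries and at 163, 182 and 162 CPM in the siFOXA1 libraries. The 2 groups did not overlap, and 62.3% of the NSI level remained. This was a log2 fold change of −0.68 with an SE of 0.10 (adjusted p 0.0022 by the quasi-likelihood test of edgeR), and an exact two-sided permutation test gave p 0.1, the smallest that 3 against 3 libraries allow. FOXA2, the closest relative measured, was at 31.6 ± 2.88 CPM in NSI and 35.9 ± 9.05 CPM in siFOXA1 (SD, n = 3 each), and it was not called (adjusted p 0.45 by the same test). FOXA3 stayed under 0.05 CPM in every library. In bulk RNA, fewer cells carrying a transcript and less transcript per cell cannot be told apart.

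Across 26478 genes tested, 27.7% were called at an adjusted p under 0.05, 13.9% higher and 13.9% lower in siFOXA1. Levels are CPM after TMM scaling, and a call here means an edgeR quasi-likelihood test adjusted over all genes tested by the Benjamini-Hochberg method. Of the 7344 calls, 217 lay in the interferon and splicing lists set aside here and 7127 lay outside both lists. The interferon list moved most, with 174 of 198 tested members higher and a median log2 fold change of 2.09. The 2 groups did not overlap in 45.1% of the genes tested, so a lack of overlap is common by itself. The largest falls and rises named below were taken only among genes whose groups did not overlap. With the replicate number as a block, calls made up 42.8% of the genes (19.7% higher, 23.1% lower). Calls fell to 3963 when siFOXA1 replicate 1 was left out and to 4738 when NSI replicate 3 was. The 44 remaining gene lists differed widely in how many of their members were called.

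**Figure D1:**
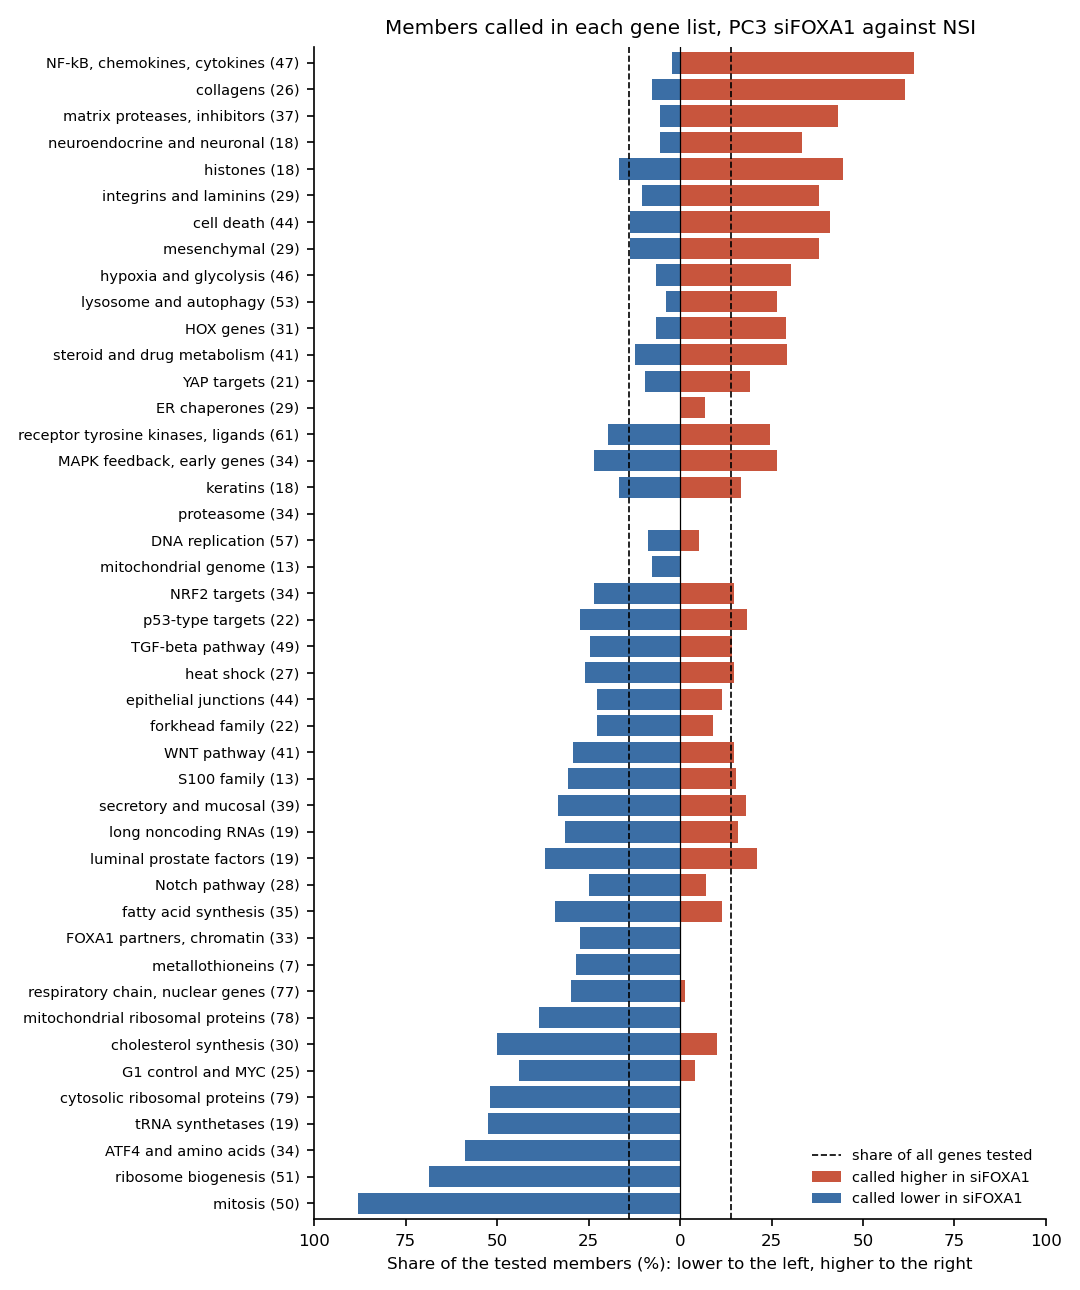
Share of the tested members of 44 gene lists that were called higher (right) or lower (left) in siFOXA1 PC3 cells, with the number tested in brackets and dashed lines at the 13.9% of all genes called in each direction. Mitosis and ribosome biogenesis stand at the low end, and chemokines with NF-kB genes and collagens at the high end.

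Secretory and mucosal genes fell or rose in part, and 3 of them were among the 12 largest falls outside the interferon and splicing lists. Of 39 tested members of the 46-gene list, 13 fell and 7 rose, against 13.9% of all genes tested in each direction, and the median log2 fold change was −0.13. Without NSI replicate 3 the higher calls were 4. VSIG1 (chromosome X, 107288200 to 107322414, plus strand), a cell surface immunoglobulin-domain protein of the gastric lining, was at 36.1, 28.8 and 36.2 CPM in NSI and at 4.25, 3.81 and 4.38 CPM in siFOXA1. The 2 groups were far apart, by −3.02 on the log2 scale (SE 0.12, adjusted p 2.5e-06). TFF1 (chromosome 21, 43782391 to 43786703, minus strand), a trefoil peptide secreted with mucus, was at 41.1, 43.7 and 48.6 CPM in NSI and at 12.3, 14.1 and 11.7 CPM in siFOXA1. CEACAM5, a surface glycoprotein of glandular epithelia, was at 75.2, 45.8 and 70.8 CPM against 17.3, 15.5 and 20.6 CPM. The log2 fold changes of TFF1 and CEACAM5 were −1.81 (SE 0.11, adjusted p 1.5e-05) and −1.84 (SE 0.19, adjusted p 0.00031). A lack of overlap between the groups was a condition for naming these 3 genes.

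SPDEF, a transcription factor of goblet cells and of luminal prostate cells, was at 87.3, 88.0 and 95.0 CPM in NSI and at 33.1, 37.3 and 32.4 CPM in siFOXA1. Its log2 fold change was −1.40 (SE 0.09, adjusted p 2.4e-05), and the groups did not overlap. REG4, a secreted lectin of the gut epithelium, was at 56.2, 57.6 and 54.5 CPM against 17.5, 21.7 and 19.5 CPM, or −1.52 on the log2 scale (SE 0.10, adjusted p 2.3e-05). TFF2 and MUC5AC, chosen after their values were seen, encode a second trefoil peptide and a gastric mucin. They fell by 1.56 and 1.37 on the log2 scale (SE 0.16 and 0.27, adjusted p 0.00033 and 0.0071 by edgeR). The fall did not extend to all mucins. MUC13 and MUC1, both membrane-bound, rose by 1.74 and 1.64 on the log2 scale (SE 0.11 and 0.18, adjusted p 1.7e-05 and 0.0004), with MUC1 at 4.51, 5.29 and 5.14 CPM in NSI against 15.3, 19.5 and 11.7 CPM in siFOXA1. MUC5B, a gel-forming airway mucin also chosen after its values were seen, was at 5872, 2434 and 5541 CPM in NSI and at 3995, 2893 and 4132 CPM in siFOXA1. Its groups overlapped, replicate 2 was low in both, and it was not called (adjusted p 0.44 by edgeR).

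The promoter of REG4 is shown because, among the secretory genes, it carried a forkhead motif and fell. It spans chr1:119811461-119811710 on the minus strand of GRCh38.p14, the 250 bases before the gene start in RefSeq, read 5′ to 3′ with the motif in capitals.
REG4: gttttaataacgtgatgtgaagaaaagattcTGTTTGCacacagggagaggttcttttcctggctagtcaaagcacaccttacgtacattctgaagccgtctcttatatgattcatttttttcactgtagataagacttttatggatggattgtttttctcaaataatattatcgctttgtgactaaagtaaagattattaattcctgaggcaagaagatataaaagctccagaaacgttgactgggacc
The motif was searched as TGTTTAC or TGTTTGC on both strands of 300 bases, 250 before and 50 after the start. It was in 3 of the 23 promoters found for tested secretory genes, against 7.15% of 27305 promoters. Of the 12 genes with the largest falls, 7 promoters were found and none held these letters in this window. A match describes letters and not a bound site.

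**Figure D2:**
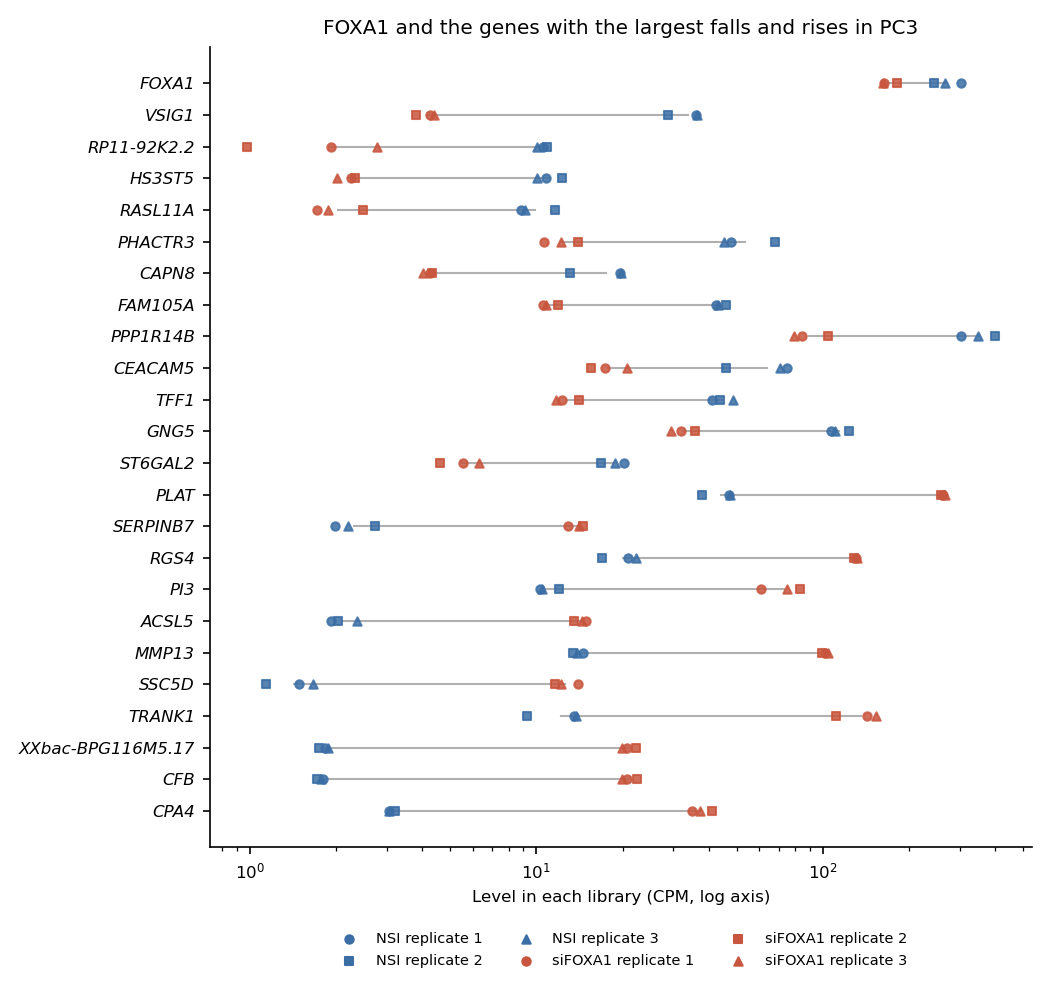
Level of FOXA1 and of 23 genes with the largest falls and rises in each PC3 library (CPM, log axis), with NSI in blue, siFOXA1 in red, the replicate number by symbol and a grey line between the group means. The 23 were chosen for large fold changes and for groups that do not overlap. FOXA1, the siRNA target, was not chosen so. Its groups do not overlap either, and it changed less than any of the 23.

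The other large falls, taken by fold change among called genes that averaged at least 5 CPM and had groups that did not overlap, were those of HS3ST5, RASL11A, PHACTR3, CAPN8, FAM105A, PPP1R14B, GNG5, ST6GAL2 and RP11-92K2.2. PPP1R14B, an inhibitor of protein phosphatase 1, was at 302, 398 and 349 CPM in NSI and at 84.4, 104 and 79.2 CPM in siFOXA1. GNG5, a gamma subunit of G proteins, was at 107, 123 and 110.2 CPM against 32.0, 35.8 and 29.6 CPM. The 2 genes fell by 1.97 (SE 0.14, adjusted p 3.6e-05) and 1.81 (SE 0.10, adjusted p 1.4e-05) on the log2 scale.

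HS3ST5, which sulfates heparan sulfate chains, was at 10.8, 12.3 and 10.0 CPM in NSI and at 2.25, 2.32 and 2.01 CPM in siFOXA1, or −2.33 on the log2 scale (SE 0.12, adjusted p 7.5e-06). PHACTR3, which binds actin and protein phosphatase 1, was at 47.9, 67.9 and 45.2 CPM against 10.6, 14 and 12.2 CPM, or −2.13 on the log2 scale (SE 0.17, adjusted p 7.4e-05). CAPN8, a calpain protease of the gastric mucosa, was at 19.6, 13.1 and 19.7 CPM against 4.25, 4.32 and 4.02 CPM, or −2.06 on the log2 scale (SE 0.16, adjusted p 6.3e-05). Groups that did not overlap were a condition for naming these 3 genes. RASL11A, FAM105A, ST6GAL2, a sialyltransferase, and RP11-92K2.2 fell by 2.29, 1.98, 1.76 and 2.46 on the log2 scale. HAPLN1, one of the 6 largest falls by difference in CPM and a protein that links hyaluronan to proteoglycans, was at 835, 652 and 821 CPM in NSI and at 289, 251 and 298 CPM in siFOXA1 (log2 fold change −1.46, SE 0.12, adjusted p 8.4e-05).

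Among genes of FOXA1's own family and its known partners, most were not called without the replicate block, and lower calls outnumbered higher calls. Of 22 tested forkhead genes, 5 fell (22.7%) and 2 rose (9.09%), against 13.9% of all genes tested in each direction. The block raised these to 11 and 6, where it called 23.1% of all genes lower and 19.7% higher. FOXP1, a repressor of the forkhead family, was at 179, 159 and 165 CPM in NSI and at 91.1, 72.8 and 101 CPM in siFOXA1 (log2 fold change −0.93, SE 0.12, adjusted p 0.0012). FOXM1, which drives mitotic genes, was at 64.4, 64.9 and 63.8 CPM against 39.2, 38.4 and 43.0 CPM (log2 fold change −0.68, SE 0.08, adjusted p 0.00066). Neither gene's groups overlapped. The 2 forkhead rises were 4 with library size alone and were lost without NSI replicate 1, siFOXA1 replicate 1 or siFOXA1 replicate 3. Among 33 co-factors and chromatin regulators that act with FOXA1, 9 were lower and 0 higher, with a median log2 fold change of −0.05, and without siFOXA1 replicate 1 the count was 5. TLE3, a co-repressor, fell by 0.83 and SMARCA4, the ATPase of a chromatin remodelling complex, by 0.69 on the log2 scale (SE 0.09 and 0.08, adjusted p 0.00031 and 0.0005).

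Luminal prostate genes were divided, with 7 of 19 tested lower and 4 higher (24 in the list). Their shares were 36.8% and 21.1%, against 13.9% of all genes tested in each direction. PMEPA1, known as an androgen and TGF-beta target, was at 8.49, 9.02 and 7.2 CPM in NSI and at 2.62, 2.88 and 2.21 CPM in siFOXA1 (log2 fold change −1.68, SE 0.14, adjusted p 8.8e-05). STEAP2 and ACPP, a metalloreductase and prostatic acid phosphatase, rose by 0.87 and 0.81 on the log2 scale (SE 0.17 and 0.12, adjusted p 0.0073 and 0.0022).

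Genes of mitosis fell together, whereas most genes of DNA replication were not called without the replicate block. Of 50 mitosis genes, all tested, 44 were lower and 0 higher, with a median log2 fold change of −0.75, against 13.9% lower and a median of −0.01 over all genes tested. Summed over the list, they reached 2432, 2424 and 2394 CPM for NSI and 1513, 1509 and 1525 CPM in siFOXA1. The 2 groups were separated by far more than the spread within either. PLK1, a kinase of mitotic entry, was at 59.4, 59.2 and 61.9 CPM in NSI and at 30.3, 29.9 and 28.9 CPM in siFOXA1 (log2 fold change −1.02, SE 0.08, adjusted p 5.3e-05). AURKA, the kinase of spindle poles, was at 69.9, 69.9 and 69.3 CPM against 32.7, 31.3 and 32.5 CPM (log2 fold change −1.11, SE 0.08, adjusted p 3e-05). KIF20A, a kinesin of cytokinesis, fell by 1.15 (SE 0.09, adjusted p 5.4e-05) and MKI67, a proliferation marker, by 0.75 on the log2 scale (SE 0.13, adjusted p 0.0038). The number of mitosis genes called lower stayed between 37 and 45 when each library was left out.

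Of 57 replication genes, 5 were lower and 3 higher, with a median log2 fold change of −0.16. These shares, 8.77% and 5.26%, lay below the 13.9% of all genes tested that were called in each direction. With the block the counts were 23 lower and 6 higher, where 23.1% and 19.7% of all genes were called. The falls were 1 without siFOXA1 replicate 1, 2 without siFOXA1 replicate 3 or any 1 NSI library, and 2 with library size alone. The rises were 9 without NSI replicate 2 and 1 without any other single library. Summed over the list, levels were 1173, 1491 and 1180 CPM for NSI and 1062, 1184 and 1102 CPM in siFOXA1. Replicate 2 was the highest of its group in both, and the groups overlapped. MCM7, a subunit of the replicative helicase, was at 104, 153 and 112 CPM against 75.1, 97.1 and 80.7 CPM (log2 fold change −0.55, SE 0.16, adjusted p 0.034). Its call was lost without NSI replicate 2 (adjusted p 0.077), NSI replicate 3 (0.059), siFOXA1 replicate 1 (0.17) or siFOXA1 replicate 3 (0.1) and with library size alone (0.065). E2F8, an atypical E2F factor that represses cell cycle genes, went the other way, at 3.49, 3.98 and 2.99 CPM against 11.4, 11 and 12.0 CPM (log2 fold change 1.72, SE 0.13, adjusted p 4.3e-05).

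Promoters of PLK1, MKI67 and MCM7 are shown because mitosis and replication genes, which parted in the counts, are known for different promoter motifs. Each gives the 250 bases before the RefSeq gene start on GRCh38.p14, 5′ to 3′. Capitals mark TTTGAA, a core of the cell cycle genes homology region, in PLK1 (chr16:23678639-23678888, plus strand) and MKI67 (chr10:128126424-128126673, minus strand), and E2F motifs in MCM7 (chr7:100101398-100101647, minus strand).
PLK1: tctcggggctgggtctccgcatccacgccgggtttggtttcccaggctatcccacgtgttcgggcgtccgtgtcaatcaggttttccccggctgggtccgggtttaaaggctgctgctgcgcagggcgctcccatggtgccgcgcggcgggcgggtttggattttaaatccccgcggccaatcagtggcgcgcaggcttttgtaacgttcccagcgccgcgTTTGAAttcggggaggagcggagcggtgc
MKI67: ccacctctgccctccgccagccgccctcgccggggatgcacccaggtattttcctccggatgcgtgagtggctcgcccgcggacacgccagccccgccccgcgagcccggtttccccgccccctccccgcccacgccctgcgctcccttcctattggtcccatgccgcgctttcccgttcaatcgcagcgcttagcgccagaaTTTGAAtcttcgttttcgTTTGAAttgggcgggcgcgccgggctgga
MCM7: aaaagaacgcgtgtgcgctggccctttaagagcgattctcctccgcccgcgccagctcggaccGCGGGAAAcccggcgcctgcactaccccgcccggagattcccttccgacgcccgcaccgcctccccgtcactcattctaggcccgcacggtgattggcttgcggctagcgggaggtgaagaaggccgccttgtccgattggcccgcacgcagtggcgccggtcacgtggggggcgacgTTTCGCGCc
TTTGAA stood on either strand of the 300-base window in 29 of 43 mitosis promoters found, or 67.4%, in 2 of 47 replication promoters, or 4.26%, and in 15.4% of all 27305. The E2F motifs, searched as TTTCCCGC, TTTGGCGC or TTTCGCGC, stood in 22 of 47 replication promoters, or 46.8%, in 3 of 43 mitosis promoters, or 6.98%, and in 2.79% of all.

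MYC (chromosome 8, 128747680 to 128753680, plus strand), the growth-promoting transcription factor, was at 829, 844 and 879 CPM in NSI and at 343, 388 and 365 CPM in siFOXA1. The groups were far apart, by −1.22 on the log2 scale (SE 0.09, adjusted p 3.4e-05). Its antagonist MXI1, which competes for the partner protein MAX, fell as well, by 1.01 (SE 0.12, adjusted p 0.00062), while CCND3, a cyclin of G1, rose by 0.83 on the log2 scale (SE 0.08, adjusted p 0.00027). In this list of 25 G1 and MYC genes, 11 were lower (44%) and 1 higher (4%), against 13.9% of all genes tested each way. The 11 became 5 without NSI replicate 3 or siFOXA1 replicate 1 and 4 without siFOXA1 replicate 3. The 1 became 3 without NSI replicate 2 or with the block, and with library size alone the counts were 7 and 2. CDKN1A, an inhibitor of cyclin-dependent kinases, was at 26.6, 19.6 and 30.2 CPM against 30.0, 28.8 and 29.1 CPM and was not called (adjusted p 0.33 by edgeR).

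In several lists of protein synthesis genes every call was lower. Of 51 ribosome biogenesis genes, 35 were lower (68.6%) and 0 higher, against 13.9% of all genes tested in each direction. The median log2 fold change was −0.41. LYAR, a nucleolar factor, was at 68.5, 76.5 and 66.6 CPM in NSI and at 42.6, 40.3 and 39.2 CPM in siFOXA1 (log2 fold change −0.79, SE 0.09, adjusted p 0.00045). The groups did not overlap. The count was 23 without NSI replicate 3, 14 without siFOXA1 replicate 1 and 22 without siFOXA1 replicate 3. Of 79 cytosolic ribosomal protein genes, 41 were lower (51.9%) and 0 higher, with a median of −0.50. With the block 79 were lower, where 23.1% of all genes were called lower. RPL5, of the large subunit, was at 835, 1055 and 867 CPM in NSI and at 469, 556 and 497 CPM in siFOXA1 (log2 fold change −0.86, SE 0.12, adjusted p 0.0012). RPS2, of the small subunit, was at 1393, 1798 and 1525 CPM against 841, 1111 and 867 CPM (log2 fold change −0.74, SE 0.14, adjusted p 0.0052). Replicate 2 was the highest of its group in both genes. The list's mean log2 level, set against the NSI mean, was −0.20, 0.26 and −0.06 in NSI and −0.64, −0.23 and −0.65 in siFOXA1. Replicate 2 thus stood higher in each group, and the siFOXA1 library of that number lay just below NSI replicate 1. The count of 41 was 24 without NSI replicate 2, 26 without NSI replicate 3, 12 without siFOXA1 replicate 1, 69 without siFOXA1 replicate 2, 62 without the filter and 19 without siFOXA1 replicate 3.

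EEF2, the elongation factor that moves the ribosome along, was at 2207, 2285 and 2351 CPM in NSI and at 1741, 1750.3 and 1614 CPM in siFOXA1 (log2 fold change −0.42, SE 0.08, adjusted p 0.0063). Of 19 cytosolic tRNA synthetase genes, which load amino acids, 10 were lower (52.6%) and 0 higher, against 13.9% of all genes tested each way. That count was 4 without NSI replicate 1, 6 without NSI replicate 2 and 2 without NSI replicate 3 or either of siFOXA1 replicates 1 and 3, and 2 with library size alone. It was 6 without the filter or with another TMM reference. RARS, for arginine, was at 65.7, 70.0 and 66.0 CPM in NSI and at 49.1, 47.0 and 48.8 CPM in siFOXA1 (log2 fold change −0.48, SE 0.08, adjusted p 0.0029). The groups did not overlap.

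**Figure D3:**
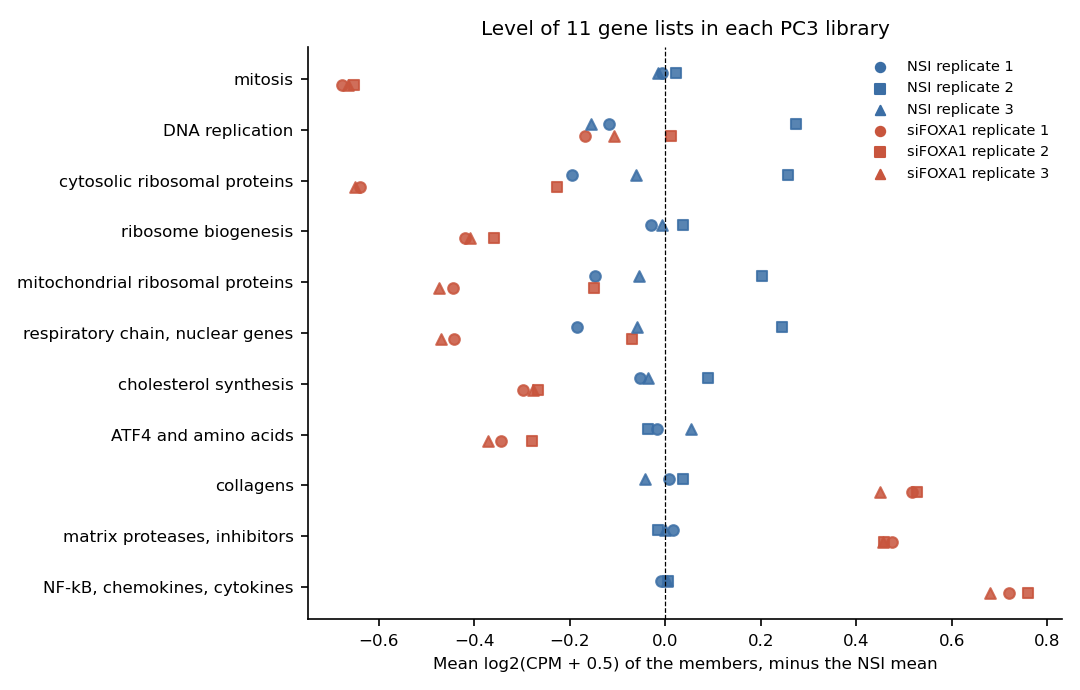
Mean log2(CPM + 0.5) of the tested members of 11 gene lists in each PC3 library, set against the mean of the 3 NSI libraries (blue NSI, red siFOXA1, replicate number by symbol). Mitosis, collagens and chemokines separate with little spread, whereas ribosomal, respiratory and replication genes also differ between replicate 2 (squares) and the other libraries of its group.

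Among nuclear genes of the mitochondrion nearly all calls were lower. Most of these genes were not called without the replicate block, and most were called with it. Of 78 mitochondrial ribosomal protein genes, 30 were lower (38.5%) and 0 higher (median log2 fold change −0.35). Over all genes tested, 13.9% were called in each direction. With the block 62 were lower, where 23.1% of all genes were called lower. MRPS7, of the small mitochondrial subunit, was at 74.1, 91.1 and 78.3 CPM in NSI and at 37.1, 45.9 and 37.7 CPM in siFOXA1 (log2 fold change −1.01, SE 0.12, adjusted p 0.00056). The groups did not overlap. The 30 became 19 without NSI replicate 2 or with library size alone, 10 without siFOXA1 replicate 1 and 16 without siFOXA1 replicate 3. Of 77 nuclear genes of the respiratory chain, 23 were lower (29.9%) and 1 higher (1.30%), with a median of −0.35. With the block, which called 23.1% of all genes lower and 19.7% higher, 57 of these genes were lower and 2 higher. Their lower count was 11 without NSI replicate 2, 8 without NSI replicate 3, 3 without siFOXA1 replicate 1, 40 without siFOXA1 replicate 2, 8 without siFOXA1 replicate 3 and 11 with library size alone. The higher count was 1 without NSI replicate 2 and 0 without any other single library. Of the 13 protein-coding genes on the mitochondrial genome, 1 was lower (7.69%, below the 13.9% of all genes tested), and the median was −0.14. The count was 2 with the block and 0 with library size alone or without 1 of the replicates 1 and 2 of NSI or 1 and 3 of siFOXA1.

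Genes that take up and make amino acids, many of them targets of the stress factor ATF4, had lower calls alone. Of 34 in the list, 20 were lower (58.8%) and 0 higher, against 13.9% of all genes tested in each direction. The median log2 fold change was −0.36. PSAT1, of serine synthesis, was at 403, 343 and 418 CPM in NSI and at 265, 266 and 254 CPM in siFOXA1 (log2 fold change −0.57, SE 0.10, adjusted p 0.0035). SLC1A5, a glutamine carrier whose exons partly overlap genes on the other strand, was at 346, 395 and 373 CPM against 232, 254 and 235 CPM (log2 fold change −0.63, SE 0.09, adjusted p 0.0014). The groups did not overlap in either gene. The count was 12 without NSI replicate 1, 9 without NSI replicate 3, 7 without siFOXA1 replicate 1 and 10 without siFOXA1 replicate 3, and 11 with library size alone.

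Among lipid synthesis genes, lower calls outnumbered higher calls. Of 30 cholesterol synthesis and uptake genes, 15 were lower and 3 higher (median log2 fold change −0.34), and 23 were lower with the block. The 15 became 9 without NSI replicate 3 or siFOXA1 replicate 3 and 6 without siFOXA1 replicate 1, and the 3 became 1 without any of the same libraries. With library size alone the falls were 9. Of 35 fatty acid synthesis genes, 12 were lower (34.3%) and 4 higher (11.4%), against 13.9% of all genes tested in each direction. FASN, the fatty acid synthase, was at 325, 292 and 321 CPM in NSI and at 201, 187 and 186 CPM in siFOXA1 (log2 fold change −0.71, SE 0.09, adjusted p 0.00064). The 12 became 6 without NSI replicate 1, 5 without NSI replicate 3, 3 without siFOXA1 replicate 1 and 7 without siFOXA1 replicate 3 or with library size alone. ACSL5, which activates long-chain fatty acids, was an exception at 1.92, 2.03 and 2.37 CPM against 15.0, 13.6 and 14.4 CPM (log2 fold change 2.76, SE 0.12, adjusted p 2.5e-06).

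**Figure D4:**
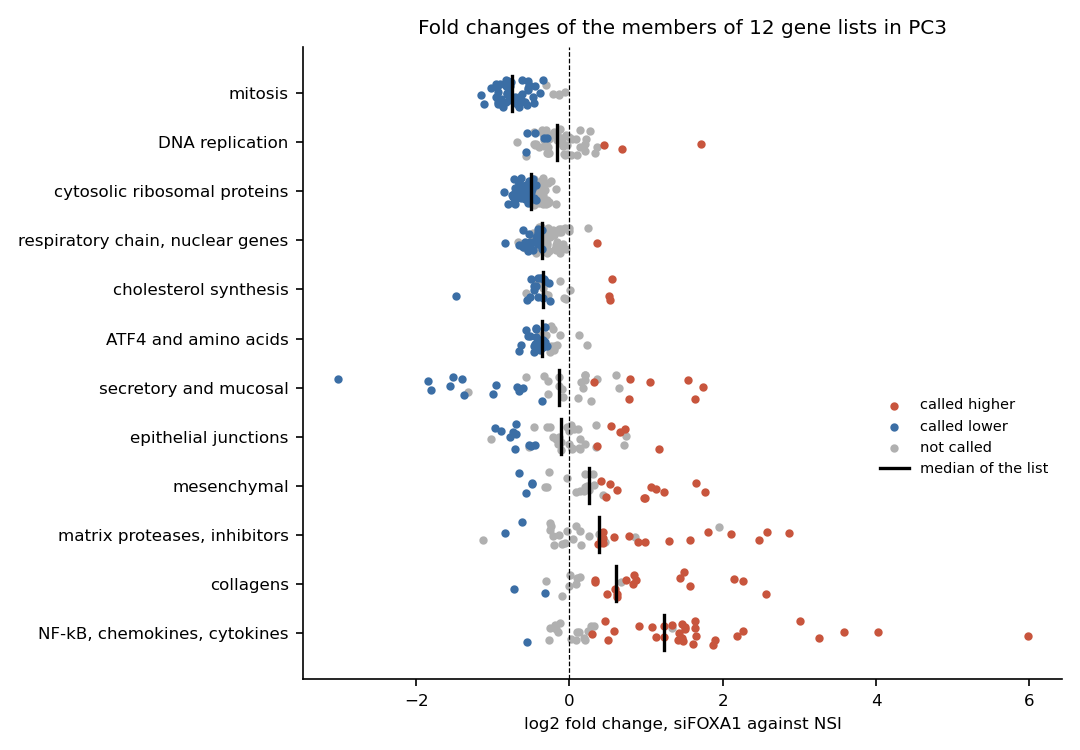
Log2 fold change (siFOXA1 against NSI) of each tested member of 12 gene lists in PC3, with called genes in red (higher) or blue (lower), others in grey, and a black bar at the median of each list. Mitosis and ribosomal protein genes lie in a narrow band below 0, while secretory and mucosal genes spread from −3.02 to 1.74.

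Among genes that build and cut the extracellular matrix, higher calls outnumbered lower calls. Of 26 tested collagen genes (30 in the list), 16 were higher (61.5%) and 2 lower (7.69%), with a median log2 fold change of 0.60. Over all genes tested, 13.9% were called in each direction. The 2 lower calls were lost with library size alone and without any single library but siFOXA1 replicate 2. COL8A1, a short-chain collagen of basement membranes, was at 3.48, 3.81 and 3.27 CPM in NSI and at 20.2, 20.1 and 22.2 CPM in siFOXA1 (log2 fold change 2.56, SE 0.10, adjusted p 2.5e-06). COL1A2, a chain of fibrillar type I collagen, was at 3.37, 4.21 and 3.12 CPM against 9.98, 10.6 and 11.2 CPM (log2 fold change 1.57, SE 0.13, adjusted p 9.2e-05). The siFOXA1 libraries were above all NSI libraries in both genes.

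Of 37 matrix proteases and inhibitors, 16 were higher (43.2%) and 2 lower (5.41%), with a median of 0.39. Over all genes tested, 13.9% were called in each direction. MMP13 (chromosome 11, 102813724 to 102826463, minus strand), a collagenase, was at 14.6, 13.4 and 13.9 CPM in NSI and at 102, 99.3 and 104 CPM in siFOXA1 (log2 fold change 2.87, SE 0.08, adjusted p 5.8e-07). PLAT and PLAU encode the tissue and urokinase activators of plasminogen. PLAT was at 46.9, 37.9 and 47.3 CPM against 262, 258 and 266 CPM, and PLAU at 131, 151 and 122 CPM against 465, 483 and 462 CPM. Their log2 fold changes were 2.57 (SE 0.11, adjusted p 2.5e-06) and 1.80 (SE 0.10, adjusted p 1.1e-05). Both were taken only among genes whose groups did not overlap. MMP14, a membrane-anchored protease, rose by 0.98 on the log2 scale (SE 0.08, adjusted p 7.3e-05). PLAU shares 28.7% of its exon bases with genes on the other strand, and the counts ignore strand.

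Integrins and laminins, which hold epithelial cells to the matrix, included 11 genes higher (37.9%) and 3 lower (10.3%) of 29 tested. Over all genes tested, 13.9% were called in each direction. LAMB3, a chain of laminin-332, was at 121, 126 and 121 CPM in NSI and at 288, 269 and 277 CPM in siFOXA1 (log2 fold change 1.18, SE 0.08, adjusted p 2.6e-05). ITGA2, a collagen receptor, was at 147, 77.4 and 128 CPM against 257, 189 and 247 CPM (log2 fold change 0.98, SE 0.22, adjusted p 0.012). ITGB5, a vitronectin receptor chain, fell by 0.77 (SE 0.08, adjusted p 0.00028). The 11 became 7 without NSI replicate 3 or siFOXA1 replicate 1 and 6 without siFOXA1 replicate 3, and the 3 became 1 without either of those siFOXA1 libraries.

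The remaining genes with the largest rises were CPA4, CFB with its readthrough transcript, TRANK1, SSC5D, PI3, RGS4 and SERPINB7. CPA4 (chromosome 7, 129932974 to 129964020, plus strand), a secreted carboxypeptidase, was at 3.06, 3.21 and 3.05 CPM in NSI and at 34.8, 41.1 and 37.4 CPM in siFOXA1 (log2 fold change 3.60, SE 0.10, adjusted p 5.8e-07). PI3, the elastase inhibitor elafin, was at 10.3, 12.0 and 10.4 CPM against 60.8, 83.5 and 75.0 CPM (log2 fold change 2.74, SE 0.14, adjusted p 5.9e-06). The groups were far apart in both genes. RGS4, which shortens G-protein signals, was at 20.9, 16.9 and 22.2 CPM against 131, 128 and 131 CPM (SE 0.12 on the log2 scale, adjusted p 2.5e-06). TRANK1, SSC5D and SERPINB7 rose by 3.47, 3.13 and 2.58 on the log2 scale.

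CFB, complement factor B, was at 1.80, 1.71 and 1.76 CPM in NSI and at 20.8, 22.5 and 19.9 CPM in siFOXA1 (log2 fold change 3.58, SE 0.10, adjusted p 5.8e-07). The readthrough transcript XXbac-BPG116M5.17 covers the same exons, so the reads of the 2 are divided between them and neither value is certain alone. The promoter of CFB is shown because, among the largest rises, it held an interferon-stimulated response element. It spans chr6:31945845-31946094 on the plus strand of GRCh38.p14, the 250 bases before the RefSeq start, and the capitals mark the element, which reads on the minus strand.
CFB: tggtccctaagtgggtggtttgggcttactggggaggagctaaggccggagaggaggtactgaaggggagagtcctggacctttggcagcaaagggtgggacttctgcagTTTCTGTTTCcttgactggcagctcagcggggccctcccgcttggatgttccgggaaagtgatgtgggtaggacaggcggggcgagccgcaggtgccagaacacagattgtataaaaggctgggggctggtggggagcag
The element, a GAAA repeat with 2 free bases between, searched on both strands, stood in 1 of 7 promoters found for the 12 largest rises. It stood in 64 of 137 promoters of the interferon list, or 46.7%, and in 3.65% of all 27305.

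Chemokines, cytokines and genes of the NF-kB pathway were mostly higher. Of 47 tested (52 in the list), 30 were higher (63.8%) and 1 lower (2.13%), against 13.9% of all genes tested in each direction. The median log2 fold change was 1.23. Without the 1 gene that the interferon list also holds, the counts were 29 and 1. The interferon list rose in the same libraries, and its part in these changes was not tested. CXCL8, which attracts neutrophils, was at 11.1, 13 and 10.3 CPM in NSI and at 47.5, 52.9 and 56.1 CPM in siFOXA1 (log2 fold change 2.19, SE 0.12, adjusted p 8.5e-06). IL1B and ICAM1, a cytokine and an adhesion receptor chosen after their values were seen, had levels of 42.7, 45.1 and 40.7 CPM against 157, 161 and 154 CPM and at 106, 95.3 and 103 CPM against 232, 209 and 225 CPM. Their log2 fold changes were 1.87 (SE 0.08, adjusted p 3.1e-06) and 1.13 (SE 0.09, adjusted p 5.5e-05), and none of these groups overlapped. ICAM1 and IL6 both share part of their exon bases with genes on the other strand. IL6, the acute-phase cytokine, was at 2.05, 1.96 and 2.27 CPM against 4.31, 4.35 and 4.61 CPM (log2 fold change 1.08, SE 0.12, adjusted p 0.00039). NFKB1, the p50 subunit of the pathway's transcription factor, was the 1 gene lower, by 0.55 on the log2 scale (SE 0.08, adjusted p 0.0023).

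Cell death genes included 18 higher and 6 lower of 44 tested, and 14 higher and 6 lower of the 40 that the interferon list does not hold. The shares of the 44 were 40.9% and 13.6%, against 13.9% of all genes tested in each direction. CASP10, a caspase of death receptors, was at 4.78, 4.57 and 4.94 CPM in NSI and at 21.8, 17.6 and 21.2 CPM in siFOXA1 (log2 fold change 2.08, SE 0.11, adjusted p 8.8e-06). FAS, a death receptor, was at 5.33, 5.07 and 4.68 CPM against 11.8, 11.1 and 11.6 CPM (log2 fold change 1.20, SE 0.10, adjusted p 7.9e-05). BID, which carries the death signal to mitochondria, fell by 0.87 on the log2 scale (SE 0.15, adjusted p 0.0037). The 6 lower calls became 2 without NSI replicate 2, NSI replicate 3 or either of siFOXA1 replicates 1 and 3, and 3 with library size alone.

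Epithelial and mesenchymal markers did not move as 2 opposed blocks. Of 44 tested epithelial junction genes, 10 were lower (22.7%) and 5 higher (11.4%). Of 29 tested mesenchymal genes, 11 were higher (37.9%) and 4 lower (13.8%), against 13.9% of all genes tested in each direction. CDH1, E-cadherin, was at 28.8, 21.5 and 27.2 CPM in NSI and at 16.3, 14.4 and 17.1 CPM in siFOXA1 (log2 fold change −0.69, SE 0.13, adjusted p 0.0049). CDH3, P-cadherin, was at 45.4, 49.2 and 42.6 CPM against 98.5, 100.3 and 110.3 CPM (log2 fold change 1.17, SE 0.09, adjusted p 6.3e-05). The groups did not overlap in either cadherin. ESRP2, an epithelial splicing regulator, fell by 0.97 on the log2 scale (SE 0.12, adjusted p 0.0009). Among mesenchymal genes, SNAI2, a repressor of E-cadherin, fell by 0.49 (SE 0.10, adjusted p 0.0083) and POSTN, periostin, rose by 1.77 (SE 0.15, adjusted p 0.0001). VIM was at 736, 769 and 737 CPM against 835, 873 and 750.2 CPM and was not called (adjusted p 0.29 by edgeR), and 52.6% of its exon bases overlap genes on the other strand. Epithelial rises were 3 without NSI replicate 3 and 8 with the block. The mesenchymal rises were 7 without NSI replicate 3, siFOXA1 replicate 1 or siFOXA1 replicate 3, and the falls 2 without NSI replicate 3, siFOXA1 replicate 1 or siFOXA1 replicate 2 or with library size alone.

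Growth factor receptors and ligands were called in both directions. Of 61 tested receptor tyrosine kinases and ligands, 15 were higher (24.6%) and 12 lower (19.7%), against 13.9% of all genes tested in each direction. KITLG, the ligand of KIT, was at 11.9, 12.0 and 11.4 CPM in NSI and at 45.0, 40.4 and 44.1 CPM in siFOXA1 (log2 fold change 1.88, SE 0.09, adjusted p 3.7e-06). FGF1 was at 2.05, 2.67 and 1.65 CPM against 11.6, 12.0 and 11 CPM (log2 fold change 2.44, SE 0.17, adjusted p 3.4e-05). Of 2 ligands of the EGF receptor, TGFA rose by 1.48 (SE 0.17, adjusted p 0.00046) and AREG fell by 1.02 on the log2 scale (SE 0.10, adjusted p 0.00022). FGFR4, a receptor of FGF ligands, fell by 1.04 (SE 0.16, adjusted p 0.0024). Without siFOXA1 replicate 1 the lower calls were 7.

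Feedback inhibitors and early genes of the MAPK pathway split as well, with 9 higher (26.5%) and 8 lower (23.5%) of 34. Over all genes tested, 13.9% were called in each direction. DUSP4 and DUSP5, phosphatases that end ERK signals, fell by 0.90 and 0.89 (SE 0.10 each, adjusted p 0.00035 each), and FOS, an early transcription factor, rose by 1.08 on the log2 scale (SE 0.15, adjusted p 0.0013). The 8 became 5 without NSI replicate 3 or siFOXA1 replicate 1 or with library size alone. In the Notch pathway, 7 of 28 genes were lower (25%) and 2 higher (7.14%). NRARP, a feedback target, was at 6.37, 6.14 and 7.85 CPM in NSI and at 2.37, 3.04 and 2.33 CPM in siFOXA1 (log2 fold change −1.40, SE 0.15, adjusted p 0.00039). LFNG, which glycosylates Notch receptors, fell by 1.28 (SE 0.11, adjusted p 8.8e-05). The Notch falls were 12 with the block and 4 without NSI replicate 1, NSI replicate 3 or siFOXA1 replicate 1, and the rises were 5 with the block or library size alone and 1 without NSI replicate 2, NSI replicate 3 or siFOXA1 replicate 1.

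In the WNT pathway, 12 of 41 tested genes were lower (29.3%) and 6 higher (14.6%), against 13.9% of all genes tested in each direction. FZD4, a receptor, was at 123, 85.9 and 111 CPM in NSI and at 45.7, 34.0 and 41.8 CPM in siFOXA1 (log2 fold change −1.40, SE 0.16, adjusted p 0.00044). WNT10B, a ligand, was at 1.35, 2.17 and 1.67 CPM against 0.453, 0.405 and 0.358 CPM (log2 fold change −2.09, SE 0.22, adjusted p 0.00032). RNF43, which removes the receptors, rose by 1.07 (SE 0.12, adjusted p 0.00043). The 12 became 6 without NSI replicate 3, 5 without siFOXA1 replicate 1 and 7 without siFOXA1 replicate 2 or with library size alone. In the TGF-beta pathway, 12 of 49 genes were lower (24.5%) and 7 higher (14.3%), and with the block 19 and 11. GDF15, a stress-induced ligand of that family, was at 460.0, 441 and 517 CPM against 202, 274 and 155 CPM (log2 fold change −1.17, SE 0.19, adjusted p 0.0026). SMAD7, an inhibitor, fell by 0.65 (SE 0.12, adjusted p 0.0048) and ID3, a target, rose by 0.93 on the log2 scale (SE 0.14, adjusted p 0.0021). The TGF-beta falls were 7 without NSI replicate 1 or NSI replicate 3 and 6 without siFOXA1 replicate 1.

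Among stress and metabolic programmes, genes of hypoxia and glycolysis included 14 higher (30.4%) and 3 lower (6.52%) of 46. Over all genes tested, 13.9% were called in each direction. PFKFB4, which sets the rate of glycolysis, was at 29.9, 23.3 and 35.7 CPM in NSI and at 62.2, 62.0 and 67.7 CPM in siFOXA1 (log2 fold change 1.11, SE 0.15, adjusted p 0.001). ADM, adrenomedullin, was at 15.1, 19.1 and 15.8 CPM against 35.0, 40.1 and 26 CPM (log2 fold change 1.01, SE 0.16, adjusted p 0.0027). LDHA and VEGFA, common targets of the hypoxia factor, were not called (adjusted p 0.35 and 0.52 by edgeR). The 3 lower calls were 1 without siFOXA1 replicate 1. HMOX1, which breaks down haem, was at 16.1, 14.9 and 21.8 CPM against 60.0, 70.2 and 63.4 CPM (log2 fold change 1.87, SE 0.15, adjusted p 6.5e-05), while GSR, glutathione reductase and like it an NRF2 target, fell by 0.74 (SE 0.08, adjusted p 0.00044).

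Of 53 tested lysosome and autophagy genes, 14 were higher (26.4%) and 2 lower (3.77%), against 13.9% of all genes tested in each direction. SMPD1, acid sphingomyelinase, was at 26.7, 31.0 and 25.4 CPM in NSI and at 46.4, 48.1 and 44.8 CPM in siFOXA1 (log2 fold change 0.74, SE 0.10, adjusted p 0.001). CTSO, a lysosomal protease, was at 8.88, 7.06 and 7.69 CPM against 26.9, 25.1 and 26.7 CPM (log2 fold change 1.73, SE 0.11, adjusted p 1.8e-05). No groups overlapped in these 2 genes. The 14 became 22 without NSI replicate 2, 8 without NSI replicate 3 or siFOXA1 replicate 1, 9 without siFOXA1 replicate 3 and 23 with the block, and the 2 became 1 without siFOXA1 replicate 1. AOX1 and CYP1B1, oxidising enzymes of drug and steroid metabolism, rose by 1.25 and 1.10 on the log2 scale (SE 0.11 and 0.16, adjusted p 0.00015 and 0.0019), in a list with 12 of 41 tested genes higher and 5 lower. The 5 became 8 with the block, 3 with another TMM reference and 2 with library size alone or without NSI replicate 3 or siFOXA1 replicate 1, and 3 without any 1 of the other 4 libraries.

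Histone, HOX and neuronal genes were higher more often than lower, where 13.9% of all genes tested were called in each direction. Of 18 tested histone genes, 8 were higher (44.4%) and 3 lower (16.7%). HIST2H2BE, of the clustered kind, was at 36.4, 33.7 and 40.6 CPM in NSI and at 89.1, 91.6 and 92.4 CPM in siFOXA1 (log2 fold change 1.30, SE 0.09, adjusted p 3.8e-05). H2AFZ, a histone variant with its own polyadenylated transcript, fell by 0.82 on the log2 scale (SE 0.15, adjusted p 0.0045). Clustered histone transcripts mostly lack a poly(A) tail, so a poly(A) library sees only part of them, and near-identical copies can share reads. Of 31 tested HOX genes, 9 were higher (29.0%) and 2 lower (6.45%), and the 9 became 5 and the 2 became 1 without siFOXA1 replicate 1. HOXB3 and HOXC6 rose by 1.08 and 1.01 (SE 0.14 and 0.12, adjusted p 0.00086 and 0.00072). The lowest log2 fold change of a HOX gene was −2.57. Summed over the list, HOX levels averaged 555 CPM in NSI and 492 CPM in siFOXA1. Of 18 tested neuroendocrine and neuronal genes (28 in the list), 6 were higher (33.3%) and 1 lower (5.56%). The 1 was 3 with the block, 2 without siFOXA1 replicate 2 and 0 without siFOXA1 replicate 1. Summed over this list, levels averaged 715 CPM in NSI and 663 CPM in siFOXA1, and the groups overlapped. SYP, synaptophysin, was at 1.19, 1.47 and 1.40 CPM against 2.54, 3.25 and 2.77 CPM (log2 fold change 1.07, SE 0.15, adjusted p 0.0015), while CHGA, a marker of that lineage, stayed under 0.02 CPM on group average. NEAT1, the long noncoding RNA of paraspeckles, was at 618, 644 and 699 CPM in NSI and at 1552, 1979.9 and 1472 CPM in siFOXA1 (log2 fold change 1.35, SE 0.13, adjusted p 0.00016), whereas MALAT1, its neighbour, was at 297, 215 and 242 CPM against 293, 297 and 278 CPM and was not called (adjusted p 0.25), except without NSI replicate 1 (adjusted p 0.04).

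The direction of change went with the level of a gene. Among protein-coding genes with a mean under 1 CPM, 20.3% were called higher and 3.80% lower. From 1 to 10 CPM the shares were 24.2% and 11.1%, from 10 to 100 CPM 11.3% and 19.5%, and over 100 CPM 9.37% and 26.6%. The median log2 fold change moved from 0.36 in the lowest class to −0.15 in the highest. The gene lists above were not matched for level, and this trend was not taken out of their counts. Scaling by library size alone made 64.3% of all calls higher.

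Noncoding classes also differed in direction. Of 2112 long intergenic RNAs, 17.9% were higher and 5.30% lower. Of 2221 processed pseudogenes, 3.06% were higher and 27.3% lower, with a median log2 fold change of −0.51. Of these, 117 were named after ribosomal proteins, and 61 of them were lower and 2 higher. Reads of processed pseudogenes can come from their parent genes, and the counting divided such reads, so these values are uncertain.

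**Figure D5:**
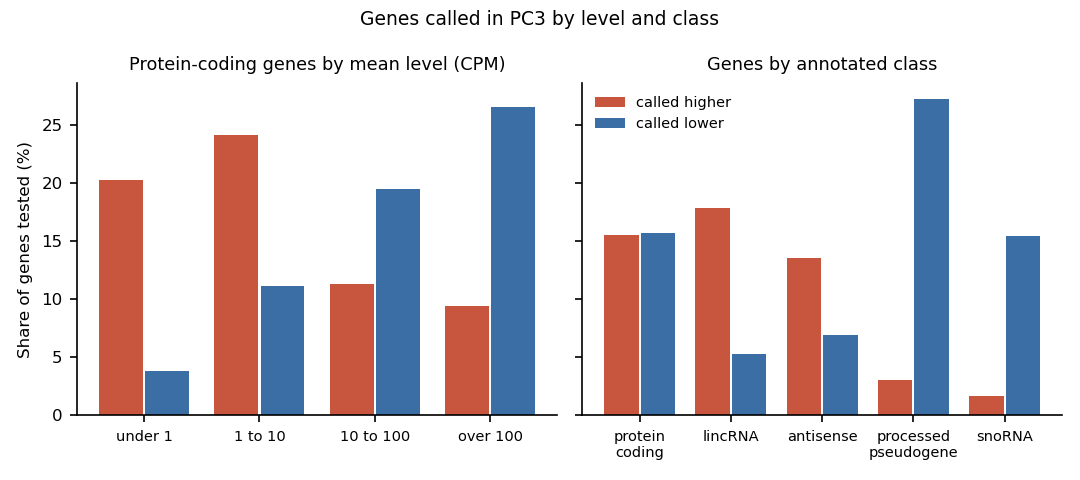
Share of genes called higher (red) and lower (blue) in siFOXA1 PC3 cells, by mean level of protein-coding genes (left, CPM) and by annotated class (right). Rises were the larger share under 10 CPM and falls above it, and processed pseudogenes were called lower in 27.3% and higher in 3.06%.

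For the 23 genes with the largest changes, the difference between the lines was tested as the change in VCaP minus the change in PC3. It was called for 14 of them, where 22.1% of 30450 genes were called by the same edgeR test. These genes were chosen for their change in PC3, which is part of the difference tested, so the 2 shares cannot be compared. TFF1 averaged 1.92 CPM in VCaP NSI and 0.125 CPM in VCaP siFOXA1, and its difference was −2.17 (SE 0.31, adjusted p 0.00011). PLAT was at 22.0 CPM in VCaP NSI and 15.7 CPM in VCaP siFOXA1, and its difference was −3.10 (SE 0.25, adjusted p 4e-07). The line cannot be told apart from the siRNA dose, the medium, the library kit and the strand setting, which all differed with it.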

How the data were processed

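RNA was sequenced from 6 PC3 libraries, and the 6 VCaP libraries entered only the test between the lines. The deposited files hold estimated counts per gene, which the authors made with featureCounts from Subread 2.0.0 on GRCh37 gene models, per the file headers. Reads with several matches or over several genes were divided among them, and strand was ignored for PC3, per the file headers. STAR 2.7.3a is named in the submitters' processing notes. Here the counts were rounded to whole numbers, filtered with filterByExpr and scaled with TMM in edgeR 4.0.16 (R 4.3.3, limma 3.58.1). Quasi-likelihood tests were adjusted over all genes tested by the Benjamini-Hochberg method, and a call needed an adjusted p under 0.05. The standard error is the log2 fold change divided by the square root of F.

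Totals ran from 123140099 to 188226483 counts per PC3 library, and the 3 libraries of a group set the precision. Same-numbered libraries deviated together from their group means (correlations 0.520, 0.644 and 0.263). NSI 1 with siFOXA1 3 also reached 0.428, and NSI 3 with siFOXA1 1 reached 0.257. The number was therefore taken only as a possible pairing. The reported fit has no block, and the replicate block is an alternative. What a number shares is not given in the sources used here. Alternatives were DESeq2 1.42.0, its size factors, library size alone, another TMM reference (chosen after seeing the data), no filter, the replicate block and each library left out. The fit was tested on simulated data first.

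Named genes were FOXA1 to FOXA3, the 12 largest rises and 12 largest falls among called protein-coding genes outside the interferon and splicing lists with at least 5 CPM and no overlap of groups, the 6 largest differences in CPM each way, up to 3 called rises and 3 called falls per list with at least 1 CPM, and a fixed set taken whatever its result. Not every gene so taken is described. IL1B, ICAM1, TFF2, MUC5AC and MUC5B were chosen after their values were seen. Members and lists were chosen with earlier results of these data known. Some genes that the rule took are not reported here. Promoter sequences came from RefSeq (GRCh38.p14).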

Additional observations from a re-analysis of the deposited data

Results flagged for a closer look

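The groups held 3 libraries each, so no library was tested as standing apart from its group. The change with siFOXA1 differed between the lines for 14 genes by the edgeR test of the difference (VCaP minus PC3, log2). The difference was 3.56 for VSIG1, 1.76 for RP11-92K2.2, 2.90 for RASL11A, 5.50 for PHACTR3, 0.58 for FAM105A, 1.97 for PPP1R14B and 1.34 for GNG5. It was −2.17 for TFF1, −3.08 for XXbac-BPG116M5.17, −2.17 for TRANK1, −3.35 for SSC5D, −2.29 for ACSL5, −2.07 for RGS4 and −3.10 for PLAT. VSIG1, XXbac-BPG116M5.17 and SSC5D were each under 0.1 CPM in both VCaP groups, so their change in VCaP rests on few counts. The line cannot be told apart from dose, medium, library kit and strand setting.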

How the results depend on the processing

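The log2 fold change of FOXA1 kept its direction and its call under all 12 alternatives, and the count of differences between the lines, 14 of 23, ranged from 13 to 15 under those run for it. Of 113 genes counted among those described here, 110 kept direction and call under all 12 alternatives. Genes that the naming rule took but that are not described were not counted. Calls were lost among those, as for EEF1A1, ITGA3 and CDCP1 without siFOXA1 replicate 1, so the 110 do not speak for every gene taken. With the replicate block, 11333 genes were called, 6116 of them lower, and the block moved 35 of 98 list counts by over 1.5 times. When 1 library was left out, between 3963 and 7628 genes were called, 2439 to 4344 higher and 1524 to 3546 lower. DESeq2 called 8391 genes, and library size alone called 7169, with 64.3% higher against a median log2 shift of 0.076 over all genes tested. Among the 113 genes the sign turned only in FOXA2, which was not called and ranged from −0.041 to 0.31 with 1 library left out. The cause was not tested. With 3 libraries a group, differences in genes at low counts may go undetected.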
